A study of Mus musculus with 2 samples.

Results

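The 34 genes described here are targets of the amino acid starvation response governed by the transcription factor ATF4. They are listed by symbol as genes known for that pathway, under a rule that sets no threshold on a measured value, although earlier results of these data were known when the list was made. They are 34 of the 32285 genes counted. Their UMIs (unique molecular identifiers, each standing for 1 captured mRNA molecule) were summed per cell group in 2 droplet single-cell libraries of CD45-positive cells, bead-sorted from CT26 tumours. CT26 is a mouse colorectal carcinoma line, grown here under the skin of BALB/c mice that were 5 weeks old at assignment and wild type as far as the labels say. The library named Control is from mice on a normal diet. Arg, the other library, was taken as the arm on an isocaloric diet without arginine, begun 1 week before inoculation, because the design text describes only those arms and the label itself gives no diet. Tumours were taken on day 20 in both arms. Each diet has 1 library, how many mice it pools is not stated in the labels, and diet and library cannot be told apart. No test or p-value can therefore be given, and every interval below is a 95% interval for counting error only.

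When an amino acid runs short, uncharged tRNA activates the kinase GCN2 (gene Eif2ak4), which phosphorylates the initiation factor eIF2. General translation slows, while translation of the Atf4 mRNA goes up, so that the level of Atf4 mRNA itself is only a partial readout of the pathway. ATF4 pairs with C/EBP proteins and binds composite elements near genes for amino acid synthesis, amino acid transport and tRNA charging, and near genes such as Ddit3 and Trib3 that feed back on the response. Other eIF2 kinases bring endoplasmic reticulum stress, viral RNA and haem shortage to the same point, and several members also answer to hypoxia, oxidative stress or immediate early signals.

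The 9-letter form of that composite element, TGATGNAAN, was searched on both strands in the RefSeq promoter windows (GRCm38.p6, from 250 bases before to 50 bases after the transcription start). Of the 27 members with a window, 10 (37.04%) held at least 1 match, beside 1215 of 27025 genes (4.50%) in the whole table. The matches lay in Asns, Atf3, Chac1, Gars, Iars, Nupr1, Pck2, Pycr1, Slc7a11 and Trib3. The stretches below belong to members that the results turn on or that mark the pathway. Capitals mark the match, and a match that starts with letters other than TGATG was found on the strand opposite to the gene.
Slc7a11, chr3:50443661-50443689, minus strand: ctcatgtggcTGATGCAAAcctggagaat
Slc7a11, chr3:50443643-50443671, minus strand: acctggagaaTTTGCATCAtcatgcagcc
Asns, chr6:7693214-7693242, minus strand: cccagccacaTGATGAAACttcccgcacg
Atf3, chr1:191183426-191183454, minus strand: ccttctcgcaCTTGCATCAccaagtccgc
Nupr1, chr7:126625563-126625591, minus strand: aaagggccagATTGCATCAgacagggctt
Chac1, chr2:119351038-119351066, plus strand: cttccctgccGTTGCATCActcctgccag
The matches of Slc7a11 began 66 and 48 bases before its start and that of Asns 23 bases before. Those of Atf3 and Nupr1 both began 111 bases before, and that of Chac1 194 bases before. These are matches of letters, and binding was not measured. The windows of Atf4, Ddit3, Ddit4, Phgdh and Psph hold no such letters. Aldh1l2, Cth, Eif4ebp1, Nars, Slc1a5, Slc7a5 and Wars had no window in the table.

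The libraries held 14540 (Arg) and 14343 (Control) barcodes with 155927693 and 191505551 UMIs, of which 12928 and 12736 cells were kept, at medians of 8278 and 9994 UMIs. The libraries shared 44 cell barcodes. Clusters were made without the 34 members, and their names rest on lists of marker genes, so each name means cells like that type (CD8 T-like and so on, written without the suffix from here). Only groups holding 100 or more cells in each library were compared: 10 named classes and 4 clusters that stayed unnamed, called C0, C2, C5 and L9. Heat shock genes, a list of 8, were lower in Arg for every measured gene in 13 of the 14 groups, and interferon gamma genes had a median above 0 in 13 of 14.

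Levels are given as CPM, a gene's UMIs scaled by the total UMIs of its group in 1 library, with Arg before Control throughout. A member counts as measured in a group at a mean of at least 10 CPM over both libraries, and as past the fold at a ratio of at least 1.5 of CPM + 5, a scale that understates the change of low genes. Of 476 pairs of member and group, 326 were measured. The fold was passed upward in 21 and downward in 12. By group, the share of all measured genes past it upward ran from 0.749% (NK cells) to 10.4% (neutrophils). Downward that share ran from 0.823% (NK cells) to 16.7% (neutrophils). No share pooled over the groups was computed, and each group's own share is given with its count below. The members' median log2 ratio was above 0 in 5 groups and below 0 in 9. It was above the median of all measured genes in 6 groups and below or level with it in the others. The members did not shift together across the groups. Most of them were higher in Arg by a modest amount in the unnamed cluster C5, and elsewhere single members differed, most often the cystine transporter gene Slc7a11.

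**Figure D1:**
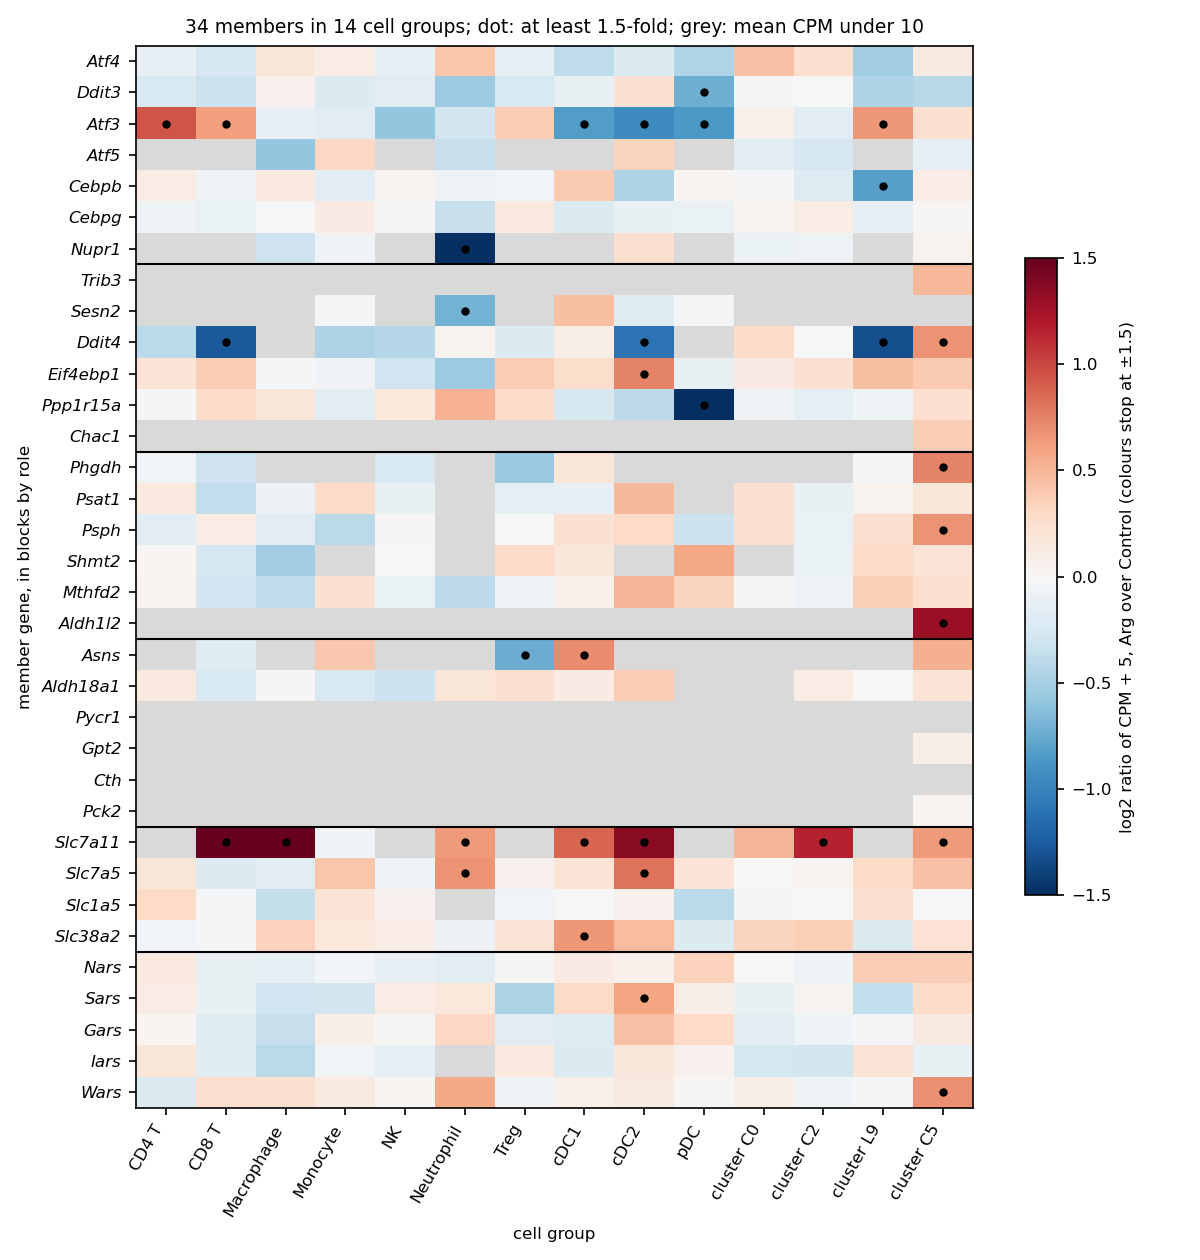
Log2 ratio of CPM + 5, Arg over Control, for the 34 members (rows, in blocks by role) in 14 cell groups (columns); black dots mark a ratio of at least 1.5-fold and grey cells a mean under 10 CPM. The C5 column is mostly red, with 27 of its 31 measured members higher in Arg, and Slc7a11 is the row with the most red dots, 7.

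Cluster C5 (530 Arg and 1455 Control cells) was the place where most of the pathway could be seen. In the Control library 24 of the 34 members, and in the Arg library 26, had their highest level of the 14 groups there, and 5 members were measured nowhere else. C5 is led by Tm4sf1, Rhox5 and Lgals7. Its cells were deep, at medians of 34603 and 33558 UMIs, and poor in Ptprc (the gene for CD45), at 38.2 and 18.5 CPM, although the sort was for CD45. The 8 epithelial keratin and junction markers summed to 7.27 and 17.45 CPM in it and the 7 fibroblast markers to 594 and 814, and it got no name. Whether it holds CT26 cells was not tested.

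In C5, 27 of 31 measured members were higher in Arg, with a median log2 ratio of 0.24, where the median of all 7852 measured genes was -0.07. Past the fold were 6 of the 31 upward and 0 downward, beside 1.67% of all measured genes upward and 1.82% downward. The summed level of the 34 members was 4661 CPM (4630 to 4693) in Arg and 3900 (3883 to 3917) in Control.

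The serine and one-carbon enzymes stood out, with all 6 higher and 3 past the fold. Aldh1l2 (chr10:83487450-83534140, minus strand), the mitochondrial 10-formyltetrahydrofolate dehydrogenase, was at 56.2 CPM (52.7 to 59.8) in Arg and 20.2 (19.0 to 21.5) in Control, a ratio of 2.78 (2.54 to 3.03). Phgdh (chr3:98313170-98339990, minus strand), which catalyses the first step of serine synthesis, was at 287 CPM (279 to 295) and 169 (166 to 173), a ratio of 1.69 (1.63 to 1.75). Psph (chr5:129765558-129787449, minus strand), which catalyses the last step, was at 187 CPM (181 to 193) and 115 (112 to 118), a ratio of 1.63 (1.56 to 1.70). No interval of the one library reached that of the other for these 3 genes. The step between them, Psat1, was at 103 and 90.2 CPM, and the folate enzymes Shmt2 and Mthfd2 were at 90.3 and 77.4 CPM and at 200.1 and 167 CPM, all short of the fold.

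The classical markers of the response moved the same way in C5 by less. Asns (chr6:7675169-7693254, minus strand), asparagine synthetase, was at 192 and 131 CPM, a ratio just short of the fold on the CPM + 5 scale (log2 0.54). Trib3, a pseudokinase that dampens the response, was at 21.5 and 13.8 CPM, and Chac1, a glutathione-degrading enzyme, at 20.3 and 14.6 CPM. Atf4 (chr15:80255184-80257541, plus strand) was at 316 and 288 CPM. Ddit3, the gene for CHOP, was one of the 4 measured members lower in Arg, at 84.1 and 113.5 CPM, with Atf5 (185 and 206 CPM), Iars (59.2 and 64.2 CPM) and, at nearly equal levels, Slc1a5 (77.8 in both). Sesn2, a stress-induced inhibitor of mTORC1 signalling, was under the measured level at 10.3 and 7.47 CPM.

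3 further members were past the fold in C5. Slc7a11 was at 19.3 CPM (17.3 to 21.4) and 10.6 (9.69 to 11.5), a ratio of 1.83. Ddit4, the gene for REDD1, an inhibitor of mTORC1 signalling, was at 28.4 CPM (26.0 to 31.0) and 15.9 (14.8 to 17.0), a ratio of 1.79. Wars, the tryptophanyl-tRNA synthetase gene, which interferon gamma also induces, was at 69.3 CPM (65.5 to 73.3) and 41.3 (39.6 to 43.1), a ratio of 1.68. With cells thinned to 2000 UMIs the log2 ratio of Ddit4 was 0.13, and with cells weighted equally that of Slc7a11 was 0.55 and that of Wars 0.54, all under the fold.

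**Figure D2:**
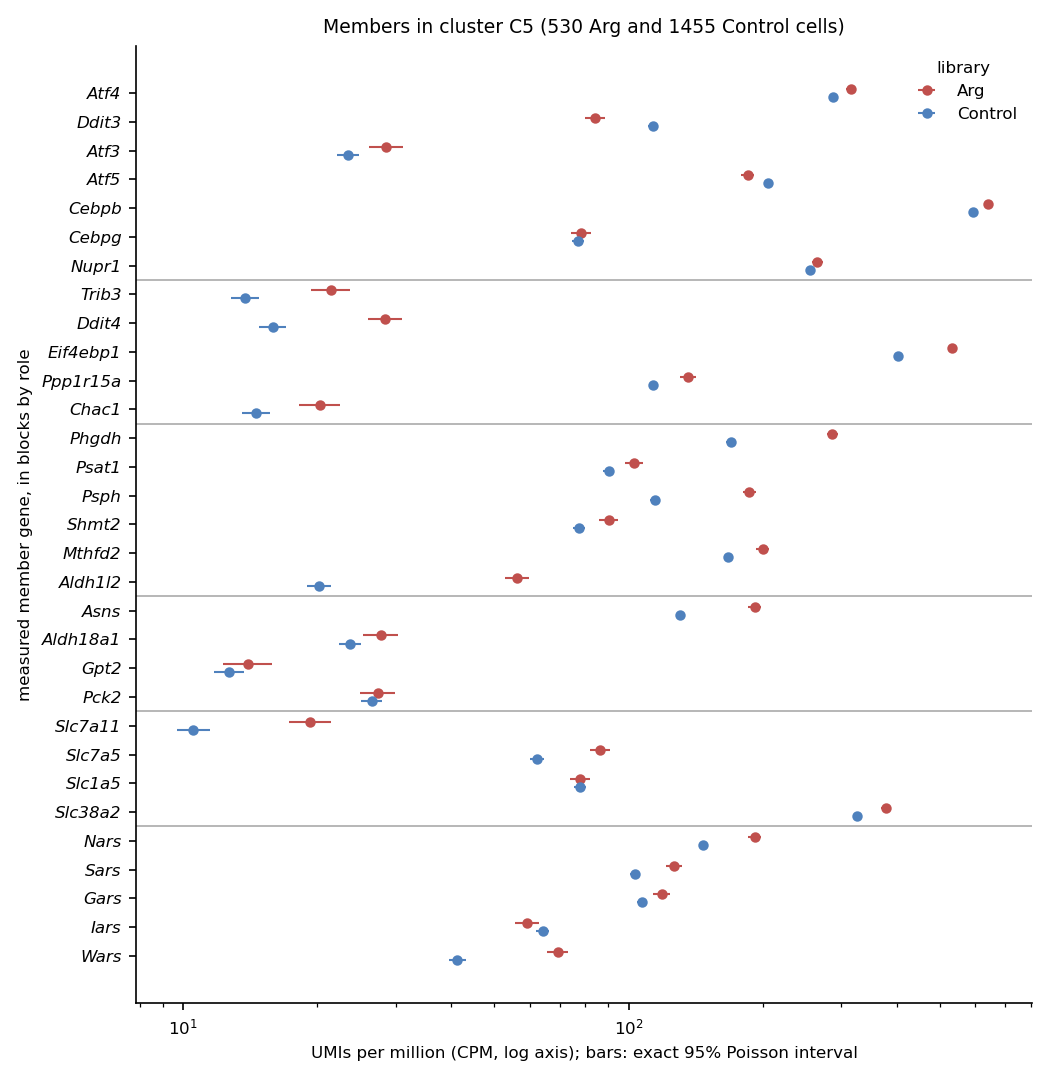
CPM (log axis) of the 31 members measured in cluster C5, in blocks by role, for the Arg and Control libraries, with exact 95% Poisson intervals. Arg lies to the right for 27 members, with Aldh1l2 farthest apart at 56.2 and 20.2 CPM and Ddit3 farthest apart the other way at 84.1 and 113.5 CPM.

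C5 was split into 6 inner clusters after its values had been seen, to see where the difference sat. In E0 (169 Arg and 487 Control cells), led by cell division genes such as Top2a and Mki67, 27 of 31 measured members were higher in Arg, and in E2 (121 and 217 cells), led by hypoxia genes such as Car9 and Bnip3, 26 of 31 were. In E1 (130 and 403 cells) 20 of 31 were higher, and the median log2 ratio was 0.07 beside 0.34 in E0 and 0.50 in E2. Phgdh was at 257 and 86.3 CPM in E2, at 335 and 193 in E0 and at 321 and 204 in E1. Aldh1l2 was at 73.0 and 27.9 CPM in E2, 64.9 and 20.0 in E0, and 51.3 and 23.3 in E1. These enzymes were thus higher in Arg in each of the 3 main inner clusters, most so in E2 for Phgdh. Ddit3 was the 1 member past the fold downward in E2, at 109 and 201 CPM, a ratio of 0.541 (0.480 to 0.609). It was also lower beyond counting error in E0 (87.5 and 104 CPM) and E1 (84.75 and 111). The same held in E3 (38.8 and 81.8) and E4 (51.1 and 90.6). In E5, on 5 and 15 UMIs, Ddit3 was higher with a ratio interval that held 1.

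In E3 (40 and 240 cells), led by the matrix genes Aspn, Ogn and Mgp and highest in fibroblast markers, 8 of 26 measured members were higher and Phgdh was at 45.0 and 53.9 CPM, a ratio whose interval (0.591 to 1.16) holds 1. In E4 (57 and 54 cells), whose summed macrophage markers were 1904 CPM beside 141 in E0, 16 of 31 were higher. E3 held 7.55% of the Arg and 16.5% of the Control cells of C5, and E4 10.7% and 3.71%. Hypoxia genes in C5 had 6 of 8 measured genes higher and 3 past the fold upward, and E2 held 22.8% of the Arg and 14.9% of the Control cells. Given 1 common mix of the inner clusters (E5, with 13 Arg cells, left out), 6 members were still past the fold. Ddit4 was level in E2, at 34.2 and 32.5 CPM, and higher in E0, at 26.6 and 13.4. Heat shock genes (7 of 7 lower) and immediate early genes (12 of 13 lower) went the other way in C5, and 8 of 9 measured interferon gamma genes were higher. The part of these lists, or of the cells of other types in E3 and E4, in the members' values was not tested.

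Of 18 measured other ATF4-responsive genes, 13 were higher and 3 past the fold, among them Ero1l, an oxidase of the endoplasmic reticulum that hypoxia also induces (499 and 225 CPM), and Gadd45a (87.1 and 46.0 CPM). Of 12 measured eIF2 kinases and eIF2 regulators 7 were higher with none past the fold, and Eif2ak4 was at 13.4 and 19.4 CPM. Of the 14 genes of the endoplasmic reticulum unfolded protein response 9 were higher and none past the fold. For the mTORC1 amino acid sensing genes 3 of 12 were higher.

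Slc7a11 (chr3:49892526-50443614, minus strand), which encodes the light chain of the cystine-glutamate exchanger and also answers to oxidative stress, was the member most often past the fold. It was measured in 9 groups, higher in Arg in 8 and past the fold in 7. Neutrophils (226 Arg and 431 Control cells) had the highest level, 2224 CPM (2100 to 2353) and 1430 (1362 to 1500), a ratio of 1.56. The 8 neutrophil markers of that class summed to 41770 and 60430 CPM (2 higher in Arg), its B cell markers to 81.5 and 1.72 (6 of 6 higher) and its plasma cell markers to 87.0 and 19.8 (5 of 6 higher), and their part in the difference was not tested. Monocytes (1349 and 979 cells) came next in Control and did not differ beyond counting error, at 217 and 226 CPM.

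The widest gap among the large myeloid groups was in macrophages (2176 and 4416 cells), where Slc7a11 was at 64.1 CPM (60.9 to 67.4) and 11.3 (10.5 to 12.2), a ratio of 5.66 (5.16 to 6.22). The libraries filled this class from different clusters, since C8, led by Nos2, C3 and Rsad2, held 868 Arg and 231 Control cells, and C1, led by Cx3cr1 and Cd72, held 645 and 2410. Within clusters the gene was higher in Arg in all 4. It was at 106 and 38.9 CPM in C8, 33.3 and 11.1 in C1, 40.3 and 11.0 in C11, and 19.8 and 5.61 in C7. In macrophages the 8 neutrophil markers summed to 160.0 and 109 CPM (6 of 8 higher in Arg) and the 9 monocyte markers to 1828 and 1600 (7 of 9 higher). The 6 cDC2 markers summed to 273 and 151 CPM (6 of 6 higher) and the 6 plasma cell markers to 224 and 7.43 (5 of 6 higher). None of these markers was at 0, and their part in the difference was not tested.

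Over the whole class Slc7a11 was the only member past the fold in macrophages, 1 of 23 measured, beside 4.59% of all measured genes upward and 2.25% downward. The other members leaned the other way there, with 14 of 23 lower and a median of -0.12. All 4 measured serine and one-carbon enzymes were lower over the class, among them Shmt2 at 16.2 and 25.3 CPM, and 4 of 5 tRNA synthetases were lower, Wars being the exception. The members' median was also below 0 within each cluster, at -0.04 in C1, -0.05 in C11 and -0.10 in both C7 and C8. Single enzymes differed by cluster. Psat1 was at 35.7 and 26.9 CPM in C1, a ratio of 1.33 (1.13 to 1.56), and at 14.05 and 19.7 in C7. Shmt2 was lower in C1, C7 and C11, beyond counting error only in C11. In C8 it was at 10.4 and 9.07 CPM, with a ratio interval (0.732 to 1.87) that holds 1. In C7, led by Lyve1 (470 and 1044 cells), 4 of 23 measured members were past the fold upward and 3 downward, named here after their values were seen. The share of all measured genes past the fold was not computed within C7, so this count is no result about the members. Upward beside Slc7a11 were Slc38a2 (133 and 74.2 CPM), Ppp1r15a (257 and 147) and Wars (50.4 and 31.6). Downward were Nupr1 (70.8 and 116 CPM), Eif4ebp1 (86.2 and 139.9) and Gpt2 (21.8 and 36.1). The 10 leading genes of C5 summed to 52.2 CPM in Arg and 110.4 in Control macrophages. They were lower in Arg in 12 of the 13 groups other than C5, and their part in the lower levels of C5-rich members was not tested.

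In cluster C2 (2118 and 400 cells), led by Ly6i and unnamed because Mgl2, a cDC2 marker, is among its leading genes, Slc7a11 was at 234 and 102 CPM, a ratio of 2.29 (2.08 to 2.53). It was the 1 member past the fold of 24 measured there, beside 1.61% of all genes upward and 1.80% downward. In cluster C0 (2065 and 1252 cells), led by Mmp13, Mmp12 and Arg1, it was at 125 and 86.8 CPM, short of the fold. None of the 22 measured members passed the fold in C0, where 4.02% of all genes did upward and 1.31% downward. Arg1, a leading gene of C0, encodes the arginine-consuming enzyme arginase.

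**Figure D3:**
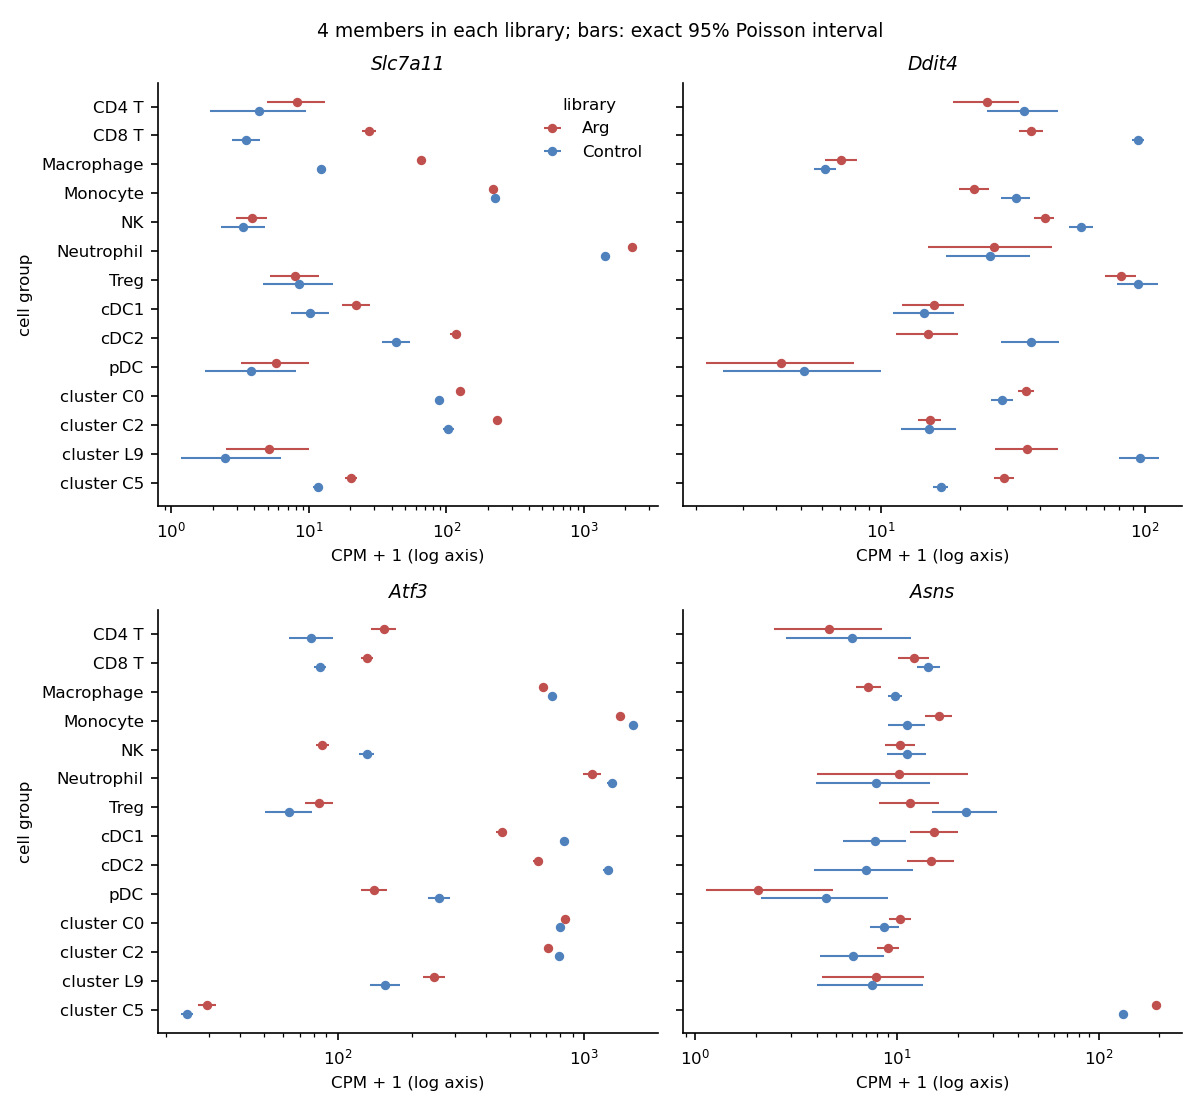
CPM + 1 (log axis) of Slc7a11, Ddit4, Atf3 and Asns in 14 cell groups for the Arg and Control libraries, with exact 95% Poisson intervals. Slc7a11 is higher in Arg in macrophages (64.1 and 11.3 CPM), Ddit4 is lower in CD8 T cells and L9 and higher in C5, Atf3 is lower in the 3 dendritic groups, and Asns is far highest in C5.

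In CD8 T cells (1064 and 1509 cells) the clear difference was Ddit4 (chr10:59949669-59951834, minus strand), which was lower in Arg. It was at 36.2 CPM (32.5 to 40.2) and 93.5 (88.7 to 98.5), 2.58-fold lower (2.30 to 2.91). Different clusters filled this class, with L4 holding 416 and 92 cells and L1 73 and 908. Ddit4 was lower within all 6, at 35.5 and 94.3 CPM in L4, 55.3 and 107 in L1, 56.7 and 90.9 in L7 and 12.99 and 20.4 in L5. In L5, on 23 and 19 UMIs, in L12 (121 and 4 cells) and in L13 (15 and 27 cells) the counting interval of the ratio held 1. Cluster L9 (166 and 168 cells), which carries CD8 T markers but stayed unnamed because Ccr7 is among its leading genes, showed the same, at 34.9 CPM (26.0 to 45.9) and 94.9 (79.3 to 113).

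Slc7a11 and Atf3 were also past the fold upward in CD8 T cells, at 26.6 and 2.47 CPM and at 131 and 83.9 CPM, but neither was past it without cluster L12. That cluster supplied 232 of the 260 Slc7a11 UMIs of the Arg class. Its summed macrophage markers were 3705 CPM, beside 234 to 508 in the other 5 clusters, and its CD8 T markers were the lowest of the class at 1643. Without L12, a setting chosen after seeing the data, Ddit4 alone was past the fold. With it, 2 of 24 measured members were past the fold upward and 1 downward, beside 5.01% and 2.71% of all measured genes. Over the class 18 of 24 were lower, with a median of -0.15. Within clusters the members' median was -0.005 in L4, -0.03 in L1, -0.08 in L7 and -0.12 in L5. In L12 (4 Control cells) and L13 (15 Arg cells) it was -0.42 and -0.24. Of the 5 measured serine and one-carbon enzymes 4 were lower over the class, Phgdh at 33.8 and 43.3 CPM among them. Psph was higher at 65.7 and 60.5 CPM. Phgdh was lower in L1 (18.4 and 33.9 CPM) and L4 (23.5 and 32.2). It was not lower in L5 (27.7 and 26.8) or L7 (71.6 and 59.8). Asns was at 11.1 and 13.3 CPM over the class, Atf4 at 117 and 139.8 and Ddit3 at 33.3 and 42.8. Within clusters Asns was higher in L1 (13.4 and 9.05 CPM) and L4 (11.5 and 8.05) and lower in L7 (18.1 and 21.4). Each of these ratio intervals held 1.

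In the other lymphocyte groups few members differed by the fold. CD4 T cells (345 and 239 cells) had 1 of 22 past it, Atf3, at 153 CPM (136 to 171) and 77.0 (62.1 to 94.3), beside 4.27% of all genes upward and 4.57% downward. Atf3 encodes a stress-induced transcription factor that immediate early signals also raise. Of the 13 immediate early genes 7 were higher in CD4 T cells and 6 lower, with 1 past the fold upward (Egr1, at 195 and 106 CPM) and 2 downward (Jun, at 213 and 377 CPM, among them). Markers of other cell types differed in the class too: the 6 plasma cell markers summed to 1683 and 23.2 CPM (5 higher in Arg, 3 at 0 in Control) and the 6 ILC2 markers to 1207 and 602.5 (6 higher, 2 at 0 in Control). Their part in Atf3 was not tested. In L9, Atf3 was likewise higher, at 246 and 155 CPM, and Cebpb, a partner of ATF4, was lower, at 102 and 183 CPM. L9 thus had 1 member past the fold upward and 2 downward of 22 measured, beside 3.84% and 6.16% of all genes.

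Regulatory T cells (296 and 161 cells) had 1 of 23 measured members past the fold, Asns, lower in Arg at 10.6 CPM (7.12 to 15.3) and 21.1 (14.01 to 30.5). This rests on 29 and 28 UMIs, and it was short of the fold under 3 of 8 alternatives, with a log2 ratio of 0.21 when cells were thinned to 2000 UMIs. All measured genes passed the fold in 2.49% upward and 3.45% downward there. NK cells (1462 and 772 cells) had 0 of 22 past the fold, beside 0.749% upward and 0.823% downward. Their nearest was Atf3, at 85.4 and 129.8 CPM. Within the class the NK cluster L8, led by Xcl1 (289 and 116 cells), had 3 of 21 measured members past the fold upward and 4 downward. The share of all measured genes was not computed within L8, so this count is no result about the members. Named after their values were seen, Atf3 was at 74.9 and 228.5 CPM there, Ddit3 at 26.1 and 58.8, Ppp1r15a at 124 and 215 and Cebpb at 321 and 496. Upward, Phgdh was at 22.7 and 8.02 CPM on 60 and 6 UMIs, Mthfd2 at 38.2 and 21.4 and Gars at 48.8 and 30.7. Ddit4 was lower short of the fold in NK cells (40.8 and 56.4 CPM), CD4 T cells (24.3 and 33.9) and regulatory T cells (80.3 and 93.4). In NK cluster L8, however, it was at 67.0 and 57.5 CPM, with a ratio interval (0.831 to 1.67) that held 1.

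The dendritic groups differed in both directions. In cDC2 (290 and 142 cells) 17 of 24 measured members were higher over the class (median log2 ratio 0.24). Past the fold were 4 upward and 2 downward, beside 2.92% and 3.96% of all measured genes. In D2 (128 and 70 cells), the largest cluster of the class, 13 of 24 were higher and the median was 0.03. The median was 0.205 in cluster D4 (14 of 24 higher) and 0.28 in D6 (17 of 26). All 4 transporter genes were higher over the class and 2 of them past the fold. Slc7a11 was at 116 CPM (105 to 128) and 42.2 (32.9 to 53.3), and Slc7a5, the large neutral amino acid transporter gene, at 50.7 (43.5 to 58.6) and 26.5 (19.3 to 35.6). Eif4ebp1, a translation repressor controlled by mTORC1, was at 160 CPM (147 to 174) and 93.5 (79.4 to 109). Sars, the seryl-tRNA synthetase gene, was at 59.97 and 38.0 CPM, and all 5 tRNA synthetases were higher.

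Slc7a11 was higher in all 3 clusters of cDC2, at 85.0 and 42.4 CPM in D2, 196 and 68.7 in D4 and 28.9 and 6.0 in D6. Slc7a5 was higher in D4 (72.8 and 37.7 CPM) and D6 (88.2 and 30.0) but not in D2 (18.5 and 19.5). Sars was under the fold in 3 of 9 alternatives, and Eif4ebp1 in 1. Monocyte markers in cDC2 summed to 2523 and 3709 CPM and neutrophil markers to 763 and 1154, and the class's own cDC2 markers to 2357 and 1559. Their part in the members' values was not tested. Ddit4 was lower, at 14.1 CPM (10.5 to 18.6) and 36.2 (27.6 to 46.6). It was lower in all 3 clusters, but in D2, on 15 and 12 UMIs, the ratio interval (0.294 to 1.57) held 1.

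In cDC1 (185 and 186 cells) 3 of 25 measured members were past the fold upward and 1 downward, beside 3.35% and 3.76% of all genes. Asns was at 14.3 CPM (10.6 to 19.0) and 6.82 (4.41 to 10.1) on 48 and 25 UMIs. Slc7a11 was at 21.2 and 9.27 CPM on 71 and 34 UMIs. Slc38a2, which encodes the neutral amino acid transporter SNAT2, was at 145 CPM (133 to 159) and 91.1 (81.6 to 101). Asns was higher in all 3 clusters of cDC1, but within each the counting interval of the ratio reached 1. Slc38a2 was higher in D0 (141 and 73.2 CPM) and D8 (128.5 and 84.8). In D7 it was at 164 and 142 CPM, with a ratio interval (0.899 to 1.48) that held 1. Slc7a11 was higher beyond counting error only in D0 (17.6 and 8.58 CPM), and in D8 it rested on 4 and 3 UMIs. Neutrophil markers in cDC1 summed to 248 and 150.5 CPM, with 2 of 8 higher in Arg and 2 at 0 there. The 6 cDC2 markers summed to 583 and 324 CPM (5 higher in Arg) and the class's own 7 cDC1 markers to 3345 and 4109 (1 higher). The part of these in Slc7a11, whose level in cDC2 was above that in cDC1, was not tested. Thinned to 2000 UMIs the log2 ratio of Slc7a11 was 0.47, and at 1 common mix of clusters that of Slc38a2 was 0.58, both short of the fold.

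Atf3 was lower in Arg in all 3 dendritic groups. It was at 462 and 827 CPM in cDC1, 646 and 1248 in cDC2, and 139 and 256 in plasmacytoid dendritic cells (pDC, 184 and 161 cells). Immediate early genes were lower beside it, with 6, 10 and 12 of 13 past the fold downward in cDC1, cDC2 and pDC, and heat shock genes with 7, 5 and 5 of 7. In pDC the phosphatase subunit gene Ppp1r15a, whose product reverses eIF2 phosphorylation, was at 65.9 CPM (54.8 to 78.6) and 195 (173 to 219), and Ddit3 was at 39.3 and 68.4 (log2 -0.56 in thinned cells, short of the fold). The 3 members past the fold in pDC, all downward, were 3 of 19 measured, where 4.49% of all genes were past it upward and 3.48% downward. In the pDC cluster D5, Atf3 was at 32.0 and 243 CPM and Ppp1r15a at 51.6 and 257, and in D1 at 185 and 272 and at 72.0 and 123. The part of an immediate early or heat shock difference between the libraries in these 3 members was not tested.

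Neutrophils had 2 of 20 measured members past the fold upward and 2 downward, against a background that was itself wide, 10.4% of all measured genes upward and 16.7% downward, so that 4 of 20 is near the background and no result about the members. Upward were Slc7a11 and Slc7a5, the latter at 16.7 and 8.60 CPM on 9 and 10 UMIs, with a log2 ratio of 0.03 when cells were weighted equally. Downward were Nupr1, a stress-induced chromatin protein gene, at 9.26 CPM (3.01 to 21.6) and 43.0 (31.9 to 56.7), and Sesn2, at 51.8 and 87.7 CPM. Nupr1 rested on 5 and 50 UMIs, its highest level was in C5, and the leading genes of C5 summed to 51.8 and 147 CPM in these neutrophils, whose part was not tested. Ddit3 had its highest level in neutrophils, at 278 and 408 CPM. Monocytes had 0 of 25 measured members past the fold, beside 2.83% of all genes upward and 1.55% downward.

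Atf4 itself was measured in all 14 groups and past the fold in none. Its highest level outside C5 in Arg was 194 CPM in C0, where Control had 141.5. It was also higher in Arg in neutrophils (183 and 136 CPM), macrophages (146 and 129), C2 (136 and 114) and monocytes (163 and 150.5). It was lower in L9 (104 and 151 CPM), pDC (110.5 and 153), cDC1 (112 and 147), cDC2 (116 and 134.5), CD4 T cells (151 and 164), CD8 T cells, regulatory T cells (121 and 133) and NK cells (135 and 149). Atf4 was thus higher in Arg in monocytes, macrophages, neutrophils, C0, C2 and C5, and lower in the 8 lymphocyte and dendritic groups, with log2 ratios from -0.52 to 0.44. The counting interval of the ratio held 1 in CD4 T cells (0.765 to 1.11), regulatory T cells (0.754 to 1.10) and cDC2 (0.733 to 1.02). Nor was Atf4 lower in every cluster of these classes: it was level in CD8 T cluster L4 (111 in Arg, 110.4 in Control) and L5 (144.0 and 143.6), and in NK clusters L0 (158 and 155) and L11 (144 and 143).

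Ddit3 was lower in Arg in 12 of 14 groups, by less than the fold except in pDC. It was at 33.1 and 39.7 CPM in CD4 T cells, 22.4 and 27.1 in regulatory T cells, 34.5 and 39.3 in NK cells, 21.9 and 32.1 in L9, 43.6 and 51.2 in monocytes and 14.3 and 15.8 in cDC1. The levels were nearly equal in C0 (60.6 and 61.2) and C2 (35.7 and 35.9), and slightly higher in Arg in macrophages (45.1 and 43.0) and cDC2 (33.2 and 27.7). Within macrophages Ddit3 was lower in Arg in C1 (39.3 and 41.7), C11 (38.4 and 42.9) and C8 (48.9 and 56.3). It was higher only in C7 (51.2 and 43.0), and each ratio interval held 1. In cDC2 it was near level in D2 (27.1 and 26.3) and D4 (38.3 and 39.9). In D6 it was at 38.5 and 15.0 on 24 and 5 UMIs. A second, overlapping gene record also named Ddit3 held 0 UMIs, and UMIs that fall in both records would be lost to either.

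Atf3 in the groups not yet named was at 676 and 736 CPM in macrophages, 1402 and 1576 in monocytes, 1074 and 1296 in neutrophils, 837 and 797 in C0, 709.5 and 790.2 in C2, 82.8 and 62.5 in regulatory T cells and 28.5 and 23.5 in C5. It was lowest in C5 in both libraries. Ddit4 in the remaining groups was at 21.6 and 31.6 CPM in monocytes, 25.9 and 24.9 in neutrophils, 14.9 and 13.6 in cDC1, 34.6 and 27.8 in C0 and 14.3 in both libraries in C2. It was under the measured level in macrophages and pDC, at 3.19 to 6.09 CPM.

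Asns outside C5 did not exceed 21.1 CPM in any group. It was at 15.1 and 10.2 CPM in monocytes, 13.8 and 6.03 in cDC2, 9.42 and 10.2 in NK cells, 9.26 and 6.88 in neutrophils, 9.41 and 7.67 in C0, 8.04 and 5.06 in C2, 6.85 and 6.57 in L9, 6.22 and 8.80 in macrophages, 3.62 and 4.97 in CD4 T cells and 1.06 and 3.45 in pDC. The cDC2 values missed the measured level although their log2 ratio was 0.77. Sesn2 was measured in 5 groups: beside neutrophils it was at 34.02 and 34.5 CPM in pDC, 28.2 and 32.6 in cDC2, 21.2 and 14.2 in cDC1 and 16.1 and 16.5 in monocytes. In the other groups it ran from 3.31 to 11.0 CPM.

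Trib3 and Chac1 were close to 0 outside C5. Trib3 did not exceed 6.59 CPM in any other group (C0, Control) and was at 0 in pDC in both libraries, where the exact interval reaches 1.96 and 2.55 CPM. Chac1 did not exceed 5.56 CPM in any other group (neutrophils, Arg) and was at 0 in CD4 T cells and L9 in both, with intervals up to 3.05 CPM. Where their counting intervals separated outside C5, the values rested on few UMIs. Chac1 was at 3.88 and 0.818 CPM in cDC1 (13 and 3 UMIs), at 0.2501 and 1.22 CPM in NK cells (3 and 8 UMIs) and at 2.06 and 0.391 CPM in macrophage cluster C11 (9 and 6 UMIs). Trib3 was at 4.12 and 2.15 CPM in C11 (18 and 33 UMIs). In cDC1 cluster D8 Trib3 was at 6.49 and 0 CPM (5 and 0 UMIs). Chac1 was at 6.54 and 0.572 CPM in cDC1 cluster D0 (10 and 1 UMIs) and at 0.246 and 2.21 CPM in NK cluster L2 (1 and 7 UMIs). Aldh1l2 did not exceed 1.85 CPM outside C5. Pycr1 and Cth, enzymes of proline and cysteine synthesis, were measured nowhere, with highest levels of 3.44 and 1.30 CPM. Gpt2 and Pck2, a transaminase and a mitochondrial PEP carboxykinase, were measured in C5 alone, at 13.99 and 12.7 and at 27.4 and 26.5 CPM.

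The remaining members passed the fold in no group other than those named. Over the groups where each was measured, their log2 ratios ran from -0.34 to 0.15 for Cebpg, -0.81 to 0.40 for Cebpb, -0.58 to 0.34 for Atf5 and -0.37 to 0.48 for Psat1. They ran from -0.52 to 0.58 for Shmt2, -0.39 to 0.51 for Mthfd2, -0.33 to 0.38 for Aldh18a1, which makes the proline precursor, and -0.41 to 0.30 for Slc1a5, a glutamine transporter gene. Among the tRNA synthetases the ranges were -0.16 to 0.39 for Nars, -0.35 to 0.44 for Gars, -0.41 to 0.21 for Iars and -0.22 to 0.68 for Wars. For members already named, the ranges were -0.54 to 0.74 for Eif4ebp1, -1.49 to 0.52 for Ppp1r15a, -0.22 to 0.65 for Slc38a2, -0.20 to 0.82 for Slc7a5, -0.48 to 0.60 for Sars, -0.41 to 0.68 for Psph and -0.56 to 0.74 for Phgdh. The upper end of Wars was in C5 and its next highest ratio, 0.57, in neutrophils, where all 10 interferon gamma genes were past the fold upward.

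The ratio of the summed member levels ran from 0.817 in pDC to 1.20 in C5. The sum was highest in neutrophils, at 12440 and 12170 CPM, and in Arg lowest in pDC, at 1279 and 1565 CPM. In neutrophils and monocytes Cebpb alone made up 61.7% and 59.6% of the Control sum, so there the sum mostly follows 1 gene that also drives myeloid differentiation. Without Cebpb the ratio was 1.22 in C5, 1.14 in neutrophils and 0.969 in macrophages.

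**Figure D4:**
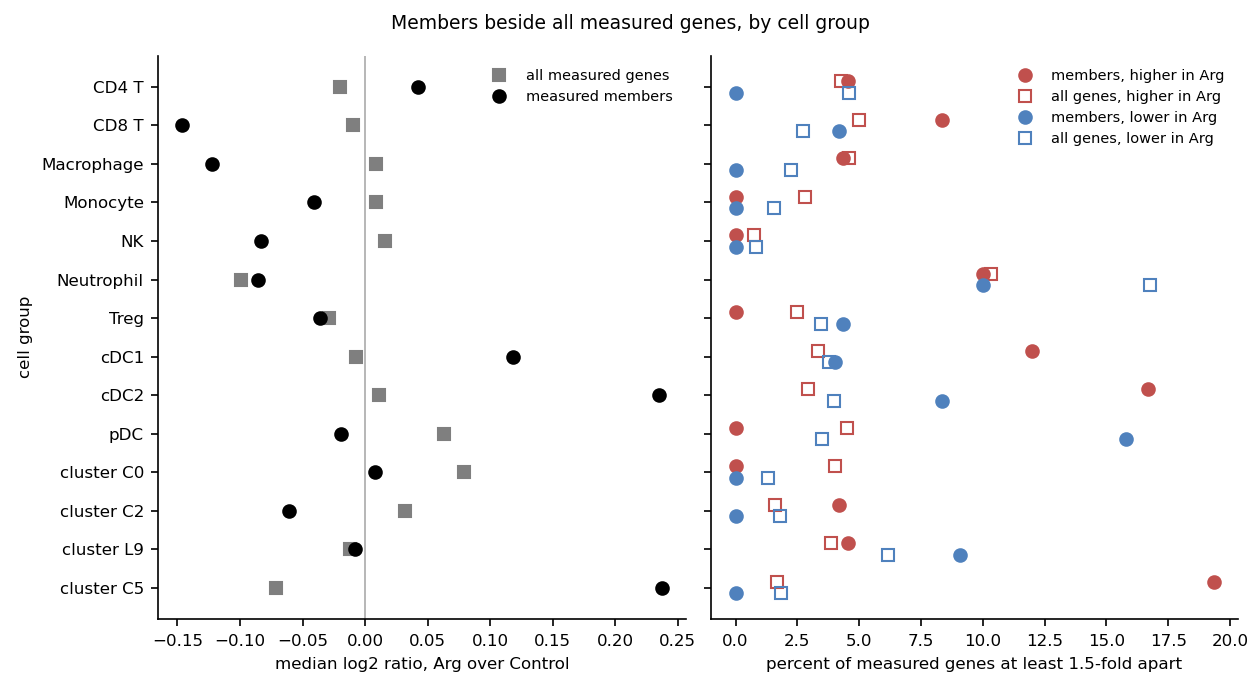
Left: median log2 ratio of the measured members (black circles) and of all measured genes (grey squares) in 14 groups. Right: percent of measured members (filled circles) and of all measured genes (open squares) at least 1.5-fold higher (red) or lower (blue) in Arg. C5 and cDC2 have the highest member medians, both 0.24, and in neutrophils the members lie within the wide background of 10.4% and 16.7%.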

How the data were processed

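Droplet single-cell RNA libraries (10x Genomics 3′ v3) of CD45-positive tumour cells were analysed, 1 for each diet. The values are raw UMI counts per gene and barcode, deposited by the authors. Cell Ranger is given as 7.0.1 per the file headers and as 2.2.2, with GRCm38, per the submitters' processing notes; neither source states how reads in introns were treated. Barcodes with at least 500 UMIs, 200 genes and at most 10% mitochondrial UMIs were kept, and Scrublet doublets (6.825% in Arg, 5.568% in Control) were removed. Cells were clustered with scanpy 1.11.5 (2000 variable genes without the members, 30 components, Leiden resolution 1), and T, NK and dendritic cells were clustered again. The thresholds for naming clusters were chosen with the clusters already in view. Counts were summed per group and library. Intervals are exact Poisson and conditional binomial 95% intervals. Cells are not replicates, so no test was run. The ratios, intervals and fold rule were tried on simulated Poisson counts, which hold no variation between cells or libraries beyond counting error. The members and lists were chosen with earlier results of these data known. Atf4, Ddit3, Trib3, Asns, Chac1, Sesn2, Ddit4 and Atf3 were named in every group, as was each member past the fold, and the other members by range. Alternatives included TMM scaling (edgeR 4.0.16). Promoter sequences are from RefSeq (27 of 34 members matched). Gene positions are GRCm38.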

Additional observations from a re-analysis of the deposited data

Results flagged for a closer look

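For 3 members the log2 ratio of Arg over Control had opposite signs in 2 groups, past the fold in both. The difference between the groups was not tested, since each diet has 1 library. Atf3 was at 0.94 in CD4 T cells and -0.94 in cDC2. Ddit4 was at 0.68 in cluster C5 and -1.32 in cluster L9. Asns was at 0.71 in cDC1, on 48 and 25 UMIs, and -0.74 in regulatory T cells, on 29 and 28 UMIs.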

How the results depend on the processing

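No paired analysis was possible because each diet has 1 library and the labels carry no replicate numbers. Of the 33 calls past the fold, 19 held under every alternative run for them, 31 kept their direction and 14 were lost under at least 1. The reversed values were Atf3 in CD8 T cells with doublets kept (-0.10) and Asns in regulatory T cells thinned to 2000 UMIs (0.21). The numbers of members past the fold were 1 in CD4 T, 3 in CD8 T, 1 in Macrophage, 0 in Monocyte, 0 in NK, 4 in Neutrophil, 1 in Treg, 4 in cDC1, 6 in cDC2, 3 in pDC, 0 in C0, 1 in C2, 6 in C5 and 3 in L9. With no filter on low values they were 3 in CD4 T and 5 in pDC. Thinned to 2000 UMIs, which left out 90 of 226 Arg neutrophils, they were 5 in CD4 T, 2 in Macrophage, 7 in Neutrophil, 6 in Treg, 11 in cDC1, 8 in pDC, 2 in C2, 10 in C5 and 6 in L9. With cells weighted equally they were 2 in CD4 T, 3 in Macrophage, 9 in Neutrophil and 5 in L9. With doublets kept they were 2 in CD4 T and 4 in Treg, and at most 5% mitochondrial UMIs gave 3 in CD4 T, 1 in NK and 8 in Treg. At resolution 2 they were 4 in CD4 T, 1 in Monocyte, 1 in NK, 5 in pDC and 1 in C0, and at resolution 0.5 there was 1 in NK. At 1 common mix of clusters there was 1 in CD8 T and 1 in NK, and without L12, an alternative chosen after seeing the data like the common mix inside C5, 1 in CD8 T. TMM scaling gave 2 in Macrophage, and a pseudocount of 1 CPM gave 3 in Macrophage, 1 in NK and 2 in Treg. A mean of at least 50 CPM, which leaves fewer members, gave 0 in Macrophage, 2 in Neutrophil, 0 in Treg, 2 in cDC1, 3 in cDC2 and 3 in C5. The cause of these changes was not tested. C2 and L9 gave no value at resolution 0.5.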

Other observations

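3 named groups had fewer than 100 cells in a library and were not compared. The summed level of the 34 members was 3100 CPM (2931 to 3275) in 28 Arg and 3134 CPM (3048 to 3222) in 76 Control fibroblasts. It was 2697 CPM (2576 to 2822) in 172 Arg and 2706 CPM (2498 to 2927) in 53 Control mast cells or basophils. In mature dendritic cells it was 1621 CPM (1545 to 1699) in 79 Arg and 1876 CPM (1788 to 1967) in 72 Control cells, the only one of the 3 groups whose intervals did not overlap.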
